A study of Sus scrofa with 6 samples.

Results

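Chromosome 10 of the pig carried 41406 of the 306802 methylation peaks that were called on the 5 chromosomes with complete peak lists in all 6 libraries. Every peak on chromosome 10 was taken, and peaks sharing 1 bp or more were joined across libraries. This gave 12528 regions on chromosome 10, out of 88582 on the 5 chromosomes. Genomic DNA came from longissimus dorsi, a back muscle, of female pigs of the Yorkshire and Wannanhua breeds, both labelled purebred, with 3 libraries each. Yorkshire is a lean Western breed and Wannanhua a Chinese breed. The sources used here give no age, housing or treatment. The labels number the samples of a breed without saying that each is a different animal, so the spread behind each p-value is that between samples and may be only technical.

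In mammals most DNA methylation sits on the cytosine of CpG dinucleotides. Gene bodies and repeats tend to be methylated, whereas CpG islands at active promoters tend not to be. Methylated DNA immunoprecipitation sequencing (MeDIP-seq) uses an antibody to methylated cytosine to pull down sheared DNA, and stretches rich in methylated CpGs are recovered best. A peak is a stretch where sequenced tags pile up above the local background, so it marks methylated DNA without giving a percentage of methylation. The muscle holds several cell types, and a change in cell makeup cannot be told apart from a change of methylation within cells. The sources used here name no genome build. Peaks reached position 79100115, past the last chromosome 10 gene of the Sscrofa11.1 gene table at 69319921, and 1650 regions lay beyond it. Positions are therefore those of the peak lists. Regions are given without gene, exon or intron, and no sequence is shown. The muscle origin was not checked against marker genes, because peaks name no genes.

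The 6 libraries differed in depth, duplication and fragment length. After duplicate tags were removed they held 6728444 to 17108367 tags, with the fewest in Yorkshire 3 and Wannanhua 1. The rate of redundant tags was 0.58 in Yorkshire 1 and 0.69 in Yorkshire 3, against 0.29 to 0.40 in the others. Yorkshire 3 also stood apart in having the shortest estimated fragments, 97 bp against 150 to 202 bp in the others. There, 93.7% of the chromosome 10 peaks were narrower than 500 bp, against 20.9% to 57.5% elsewhere. All 3 Wannanhua libraries had longer fragments (179 to 202 bp) than all 3 Yorkshire libraries (97 to 169 bp). Fragment length and breed can therefore not be told apart here.

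Chromosome 10 was the second most densely covered of the 5 chromosomes in every library. Yorkshire 1, 2 and 3 had 90.6, 106 and 79.1 peaks per Mb on it, and Wannanhua 1, 2 and 3 had 59.1, 96.9 and 91.6. Its density was 1.46 times that of chromosome 1 (range over the 6 libraries 1.397 to 1.57) and 1.53 times that of chromosome 13 (1.46 to 1.62). It was 1.18 times that of chromosome 11 (1.15 to 1.20). Against chromosome 12 it was lower, at 0.867 times (0.823 to 0.899). Each of these 4 differences had the same sign in 6 of 6 libraries (exact two-sided sign-flip permutation test, p = 0.031, adjusted p = 0.031, the smallest that 6 libraries allow). The order of the 5 chromosomes by density was the same in every library.

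**Figure D1:**
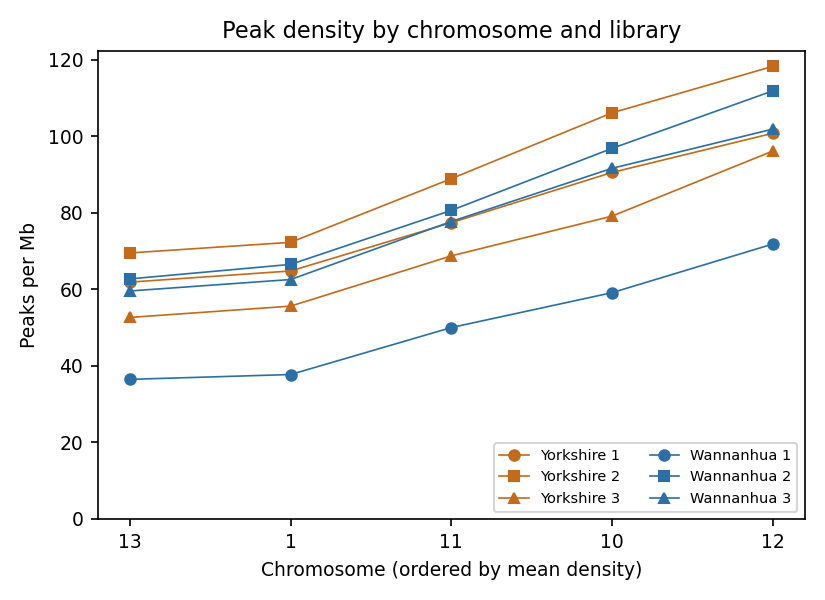
Peaks per Mb (y axis) on each of the 5 chromosomes complete in all lists (x axis, ordered by mean density), with 1 line per library. In each of the 6 lines chromosome 10 lies above chromosomes 13, 1 and 11 and below chromosome 12, and Wannanhua 1 is the lowest line throughout.

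Peaks on chromosome 10 were also wider and less enriched than on the large chromosomes. Their median width averaged 1.10 times that on chromosome 1 and 1.11 times that on chromosome 13. Their median fold enrichment, which is the authors' ratio of tags to local background, was 0.827 and 0.809 times the value on those chromosomes. Both held in 6 of 6 libraries (exact sign-flip permutation test, adjusted p = 0.042 for width and 0.031 for fold). Against chromosome 12 both were reversed, with a width of 0.926 times and a fold of 1.14 times, again in 6 of 6 libraries. The peaks of a single library covered 2.62% (Yorkshire 3) to 7.48% (Wannanhua 2) of chromosome 10. The merged regions together covered 9797 kb, or 12.4%, with a median gap of 3403 bp between neighbours.

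Methylated regions were found along the whole of chromosome 10, but unevenly. The mean number of peaks per full 1 Mb window over the 6 libraries ran from 23.7 to 131, a 5.54-fold range with a median of 94.8. All 15 pairs of libraries ranked the 79 full windows alike, with Spearman's rho from 0.81 to 0.93. This is a description across windows that share library, depth and base composition. The densest window began at 21000001 and held 138, 153 and 128 peaks in Yorkshire 1, 2 and 3 and 85, 143 and 139 in Wannanhua 1, 2 and 3. The next densest began at 63000001, 20000001, 11000001 and 74000001, so dense windows lay on both sides of the middle and not at the very ends.

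The sparsest stretch lay near the middle. The window from 39000001 held only 30, 28 and 25 peaks in Yorkshire and 13, 22 and 24 in Wannanhua, and the window from 41000001 held 34, 32, 31, 19, 33 and 29 in the same order. The windows from 42000001, 50000001 and 78000001 completed the 5 sparsest. Peak-free gaps followed the same layout. Of the 12527 gaps between neighbouring regions, 3 were longer than 100 kb, and they lay at 41059713 to 41209533 (149821 bp), at 50200986 to 50344350 (143365 bp) and at 39234835 to 39363077 (128243 bp). In each of these stretches none of the 6 libraries had a peak. Without a control library, low mappability and low methylation cannot be told apart there.

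**Figure D2:**
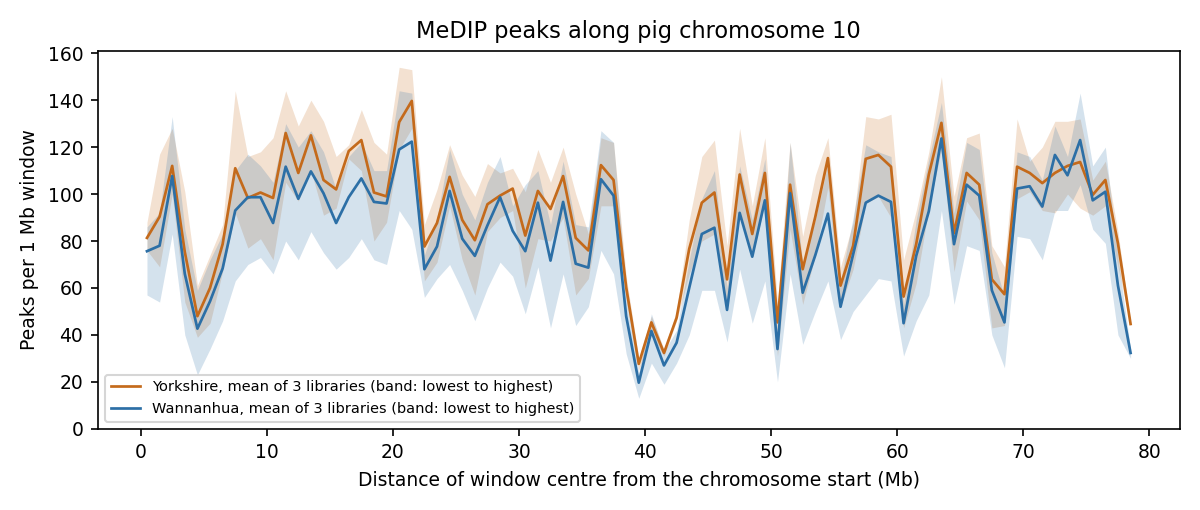
Peaks per 1 Mb window (y axis) against distance from the start of chromosome 10 (x axis, Mb), as the mean of 3 libraries per breed with a band from the lowest to the highest library. The lines of both breeds dip together near 40 Mb, where the sparsest window averaged 23.7 peaks, and the bands overlap along most of the chromosome.

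The ends of chromosome 10 were little denser than its interior. Peaks per Mb in the 20 Mb next to either end were 1.10 ± 0.033 times those further inside in Yorkshire and 1.16 ± 0.063 times in Wannanhua (SD, n = 3 each). With end zones of 10 Mb the ratios were 1.01 and 1.07, and with a stricter peak score 0.971 and 1.17, so in Yorkshire the excess at the ends depended on these settings. On chromosome 11, which is of similar length, the ratio was 1.76 ± 0.070 and 1.98 ± 0.23, and on chromosome 1 it was 1.45 ± 0.10 and 1.62 ± 0.15. The ratio on chromosome 10 averaged 0.604 times that on chromosome 11, 0.735 times that on chromosome 1 and 0.908 times that on chromosome 13, lower in 6 of 6 libraries each time (exact sign-flip permutation test, adjusted p = 0.031). Chromosome 12 had a ratio close to that of chromosome 10 (0.979 times, lower in 6 of 6 libraries), but there the end zones take up most of its 63.6 Mb. They also take up, narrowly, most of chromosome 10 (79.1 Mb), but far less of chromosomes 1 (315 Mb) and 13 (219 Mb). Against those 2 the ratios therefore compare unlike parts. The comparison between chromosomes is given for 20 Mb zones only.

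Most regions of chromosome 10 were called in only some of the libraries. A peak was present in 1 library for 3456 regions (27.6%) and in all 6 for 2322 (18.5%). Over all 5 chromosomes these shares were 25.5% and 21.6%. In between, 2059, 1509, 1480 and 1702 regions were called in 2, 3, 4 and 5 libraries. Regions called in more libraries were wider and stronger. Median width rose from 451 bp in 1 library to 881 bp in all 6, median fold enrichment from 9.44 to 15.3 and median tags from 15 to 28. This order is partly built in, since a region merged from more peaks can only be wider.

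**Figure D3:**
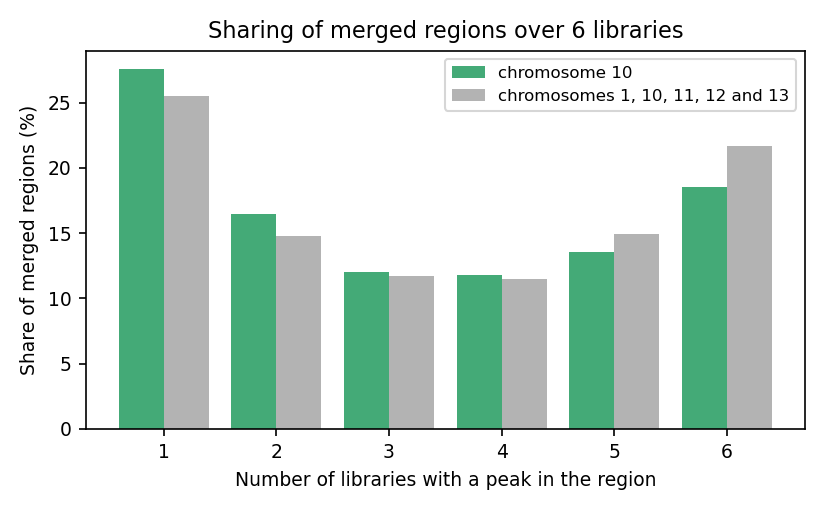
Share of merged regions (y axis, percent) by the number of libraries with a peak in the region (x axis), for chromosome 10 and for all 5 complete chromosomes. On chromosome 10 the bar for 1 library (27.6%) is the highest, and the bar for all 6 (18.5%) is lower than over the 5 chromosomes (21.6%).

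The regions in a single library were spread over all 6 lists, with 934 in Yorkshire 2, 667 in Wannanhua 2, 612 in Yorkshire 1, 558 in Wannanhua 3, 487 in Yorkshire 3 and 198 in Wannanhua 1. Regions missing in a single library were most often missing in Wannanhua 1, which has the fewest chromosome 10 peaks (856 regions), and next in Yorkshire 3 (393). Sharing was only slightly greater within a breed than between breeds. The overlap of 2 libraries, as regions called in both over regions called in either, averaged 0.529 for the 3 Yorkshire pairs (0.495 to 0.565). It averaged 0.508 for the 3 Wannanhua pairs (0.460 to 0.589) and 0.480 for the 9 pairs across breeds (0.397 to 0.560), so the ranges overlapped. For tags (log2) in shared regions, Pearson's r averaged 0.649 within Yorkshire, 0.857 within Wannanhua and 0.673 across breeds, a description across regions. The Yorkshire libraries were thus, on average, no more alike in tag levels than libraries of different breeds. Yorkshire 2 was nearer to the Wannanhua libraries (r from 0.81 to 0.85) than to Yorkshire 1 (0.75) and Yorkshire 3 (0.54). Against the Wannanhua libraries r was 0.67 to 0.70 for Yorkshire 1 and 0.48 to 0.51 for Yorkshire 3. Between Yorkshire 1 and Yorkshire 3 it was 0.66.

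The 2322 regions called in all 6 libraries are those with a peak in every list, and 1980 of them (85.3%) were a single peak in each library. The most enriched, by mean rank of fold within a library, lay at 33726760 to 33727462. Its fold enrichment was 45.1, 39.1 and 67.1 in Yorkshire 1, 2 and 3 and 41.2, 34.5 and 33.5 in Wannanhua 1, 2 and 3, on 115, 123, 85, 156, 224 and 149 tags. These folds were 3 to 4 times the median of chromosome 10 peaks in the same library. A pair of highly enriched regions lay close together at 22638450 to 22639223 (fold 38.7 ± 9.02, SD over 6 libraries) and 22644427 to 22645381 (37.9 ± 6.62). Another 3 of the 8 most enriched, at 42755576, 43101094 and 43139173, lay in or just past the sparse middle of the chromosome. None of the 8 passed the test of tags between breeds (edgeR quasi-likelihood test, adjusted p from 0.423 to 0.993).

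The 8 regions with the most tags were 1267 to 6305 bp wide, with a mean fold enrichment from 7.51 to 24.4. The one at 21603521 to 21607240 held 1468, 2376 and 1185 tags in Yorkshire and 2228, 2920 and 2722 in Wannanhua. The next, at 15808970 to 15812428, held 1280, 1983 and 1596 tags in Yorkshire and 1387, 2168 and 1905 in Wannanhua. Neither passed the test of tags between breeds (log2 fold change, Wannanhua over Yorkshire, 0.61 with SE 0.42 and 0.02 with SE 0.43, edgeR adjusted p = 0.489 and 0.99). In the scaled levels of that test, every Wannanhua library lay above every Yorkshire library at 21603521, while the breeds overlapped at 15808970. The widest region in all 6 libraries spanned 6305 bp at 29442537 to 29448841, with 559 to 1706 tags. It was the only one of the 2322 that reached 5 kb. The narrowest of the 8, at 21693187 to 21694453, was also the most enriched of them (fold 24.4 ± 3.48, SD over 6 libraries).

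With all peaks kept, breed differences over chromosome 10 as a whole were within the spread between libraries. Peaks per Mb averaged 91.9 ± 13.6 in Yorkshire and 82.5 ± 20.4 in Wannanhua (SD, n = 3 each; exact two-sided permutation p = 0.7), and the order turned without Wannanhua 1 (Wannanhua higher by 2.30, exact p = 0.8). Chromosome 10 took 13.3% ± 0.24 of the peaks on the 5 chromosomes in Yorkshire and 13.7% ± 0.22 in Wannanhua (exact p = 0.3). It took 14.7% ± 0.62 and 15.3% ± 0.17 of the tags in peaks (exact p = 0.2). Median peak width was 447 ± 130 bp in Yorkshire and 613 ± 83.2 bp in Wannanhua (exact p = 0.2). Median fold enrichment was 14.1 ± 4.54 and 10.9 ± 1.73 (exact p = 0.3). The lowest adjusted p of the 7 measures was 0.42, and 3 libraries against 3 cannot give an exact p below 0.1.

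A small set of regions was called throughout one breed and nowhere in the other. Yorkshire-only regions, with peaks in its 3 libraries and none in Wannanhua, numbered 194, or 1.55% of chromosome 10 regions, against 1.47% over the 5 chromosomes. Wannanhua-only regions numbered 128, or 1.02%, against 0.798%. Both sets held fewer tags than the regions called in all 6 libraries. The median chromosome 10 peak held 19, 25 and 13 tags in Yorkshire 1, 2 and 3. It held 15, 29 and 27 in Wannanhua 1, 2 and 3, so Wannanhua-only regions were near the typical peak. Yorkshire-only regions held a median of 16, 22 and 11 tags in Yorkshire 1, 2 and 3, where regions called in all 6 held 25, 35 and 18. Wannanhua-only regions held 13.5, 31 and 28.5 against 16, 37.5 and 35. The smallest peak in a list held 7 to 13 tags, so a region without a peak may still have tags below the cutoff. With the same number of top-scoring peaks (33496) kept per library, the balance turned to 119 Yorkshire-only and 226 Wannanhua-only regions, so neither breed can be said to have more.

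Both sets were spread over the chromosome. The first 20 Mb held 59 (30.4%) Yorkshire-only and 42 (32.8%) Wannanhua-only regions, against 27.8% of all regions. Of the 128 Wannanhua-only regions 34 (26.6%) fell in the last 10 Mb of the chromosome, against 22 of 194 (11.3%) Yorkshire-only regions and 1697 of 12528 (13.5%) of all regions. Between the 20 Mb end zones lay 34 (26.6%) Wannanhua-only and 85 (43.8%) Yorkshire-only regions, against 46.3% of all regions. Cut into 10 Mb segments, Wannanhua-only regions were fewest between 40 and 50 Mb (3 of 1301 regions, 0.231%) and most frequent in the last segment, which starts at 70000001 (32 of 1517, 2.11%). Yorkshire-only regions varied less, from 1.01% of the regions between 50 and 60 Mb to 1.93% in the first segment. These are counts without a test. Many breed-only regions were near a peak of the other breed: the median distance was 1958 bp for Yorkshire-only and 1746 bp for Wannanhua-only regions. Within 1 kb of one lay 51 (26.3%) and 36 (28.1%), and only 14 and 2 were more than 10 kb away.

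The Yorkshire-only region with the best mean score lay at 4725335 to 4725846, with 14, 35 and 13 tags in Yorkshire 1, 2 and 3 enriched 25.6 ± 9.21-fold (SD, n = 3). Its nearest Wannanhua peak was 11517 bp away. A similarly isolated one at 5160263 to 5160968, 12883 bp from a Wannanhua peak, had 20, 22 and 8 tags and a fold of 25.8 ± 6.06. Another in this neighbourhood, at 8342207 to 8342649, had 12, 23 and 9 tags, so these steep peaks rest on few tags. More tags stood behind the region at 62970006 to 62970828 (46, 54 and 18, fold 15.0 ± 5.08), although a Wannanhua peak lay 2842 bp off. The other 4 of the 8 best were at 7520242, 20969596, 49980731 and 67589314, each 1193 to 1703 bp from a Wannanhua peak. Of these 8, 3 remained Yorkshire-only with a stricter score, 5 with a reciprocal overlap of 50%, and 7 each with equal numbers of top peaks and with peak summits in place of peaks.

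Wannanhua-only regions included wider ones with more tags. The best by score, at 73306894 to 73308440, held 75, 121 and 85 tags in Wannanhua 1, 2 and 3 with a fold of 11.6 ± 2.25 (SD, n = 3), 2098 bp from the nearest Yorkshire peak. The next, at 71294401 to 71296036, held 72, 127 and 109 tags with a fold of 9.70 ± 1.93. Both lie in the distal stretch described below by its windows. Another 4 of the 8 best lay within the first 4 Mb, at 811727, 1656546, 2080822 and 3568260. The most isolated of these, at 811727 to 812123, had 10, 22 and 26 tags, a fold of 19.3 ± 2.62 and no Yorkshire peak within 11027 bp. The remaining regions were at 25697828 and 63609887, the latter only 192 bp from a Yorkshire peak. Here 7 of 8 remained Wannanhua-only with a stricter score, 7 with reciprocal overlap, and 8 each with equal numbers of top peaks and with peak summits.

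For the regions called in all 6 libraries, tags could be compared as levels. They were summed per region and library, scaled to CPM (counts per 1000000 tags, with edgeR's TMM factors) and fitted together with the regions of the other 4 chromosomes. Of the 2322 regions, 12 (0.517%, against 0.543% over the 5 chromosomes) held more tags in Wannanhua and 4 (0.172%, against 0.151%) more in Yorkshire, at an edgeR adjusted p under 0.05. These shares are near the background, so chromosome 10 did not stand out by the number of such regions. The direction of the whole set was nearly even, with 1258 of the 2322 (54.2%) higher in Wannanhua and a median log2 fold change of 0.05, against 46.2% and −0.04 over the 5 chromosomes. At an unadjusted edgeR p under 0.05 it was less even, with 288 regions higher in Wannanhua and 131 in Yorkshire. Shares over the 5 chromosomes are not given for these counts.

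The largest rise in Wannanhua was at 11159845 to 11161536. Its levels were 37.4, 49.1 and 31.7 CPM in Yorkshire 1, 2 and 3 and 127, 131 and 164 CPM in Wannanhua 1, 2 and 3 (log2 fold change 1.81, SE 0.34, edgeR adjusted p = 0.0131). The peak was also longer, at 1377, 1637 and 1502 bp in Wannanhua against 539, 781 and 435 bp in Yorkshire, and per kb of called peak the levels differed by 1.38 times. At 74254731 to 74256653 the levels were 64.1, 55.8 and 56.1 CPM in Yorkshire and 192, 191 and 182 CPM in Wannanhua (log2 fold change 1.68, SE 0.37, edgeR adjusted p = 0.0259). Here too the peak was longer in Wannanhua (1441, 1867 and 1677 bp against 500, 602 and 584 bp), and per kb the ratio was 1.09. The call with the lowest adjusted p was near the start of the chromosome, at 411328 to 412198. It had 17.8, 19.9 and 17.1 CPM in Yorkshire and 46.1, 51.7 and 61.5 CPM in Wannanhua (log2 fold change 1.54, SE 0.27, edgeR adjusted p = 0.00729), and per kb 1.48 times the Yorkshire level.

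The other 9 regions higher in Wannanhua had log2 fold changes of 1.04 to 1.56. They lay at 1977541, 7469511, 11013141, 13082103, 22083712, 23891530, 29143923, 45843522 and 63022897. That at 45843522 to 45845455 rose by 1.56 in tags (edgeR adjusted p = 0.0183), yet per kb of called peak it was 0.765 times the Yorkshire level. The regions at 22083712 and 13082103 are named beyond the rule for named regions, to complete the set.

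The 4 regions higher in Yorkshire also had a higher Yorkshire mean per kb of called peak, but none of them passed with called length as an offset (log2 fold change −1.24 to −0.95, edgeR adjusted p from 0.207 to 0.262). At 55496750 to 55497278 the levels were 65.9, 45.1 and 80.5 CPM in Yorkshire and 29.8, 22.9 and 25.4 CPM in Wannanhua (log2 fold change −1.27, SE 0.27, edgeR adjusted p = 0.0217). Peak lengths there overlapped between the breeds (425, 418 and 486 bp against 323, 389 and 513 bp), and per kb Wannanhua was at 0.468 times Yorkshire. At 77897886 to 77899713 the levels were 73.0, 102 and 132 CPM against 37.9, 45.7 and 38.8 CPM, a per kb ratio of 0.490. The regions at 67962986 and 7303874 had per kb ratios of 0.545 and 0.409, and at 67962986 the per kb levels of the breeds overlapped. In CPM the libraries of the breeds did not overlap in any of the 16 regions. The regions were picked by a test of these same tags, so this separation adds no evidence.

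**Figure D4:**
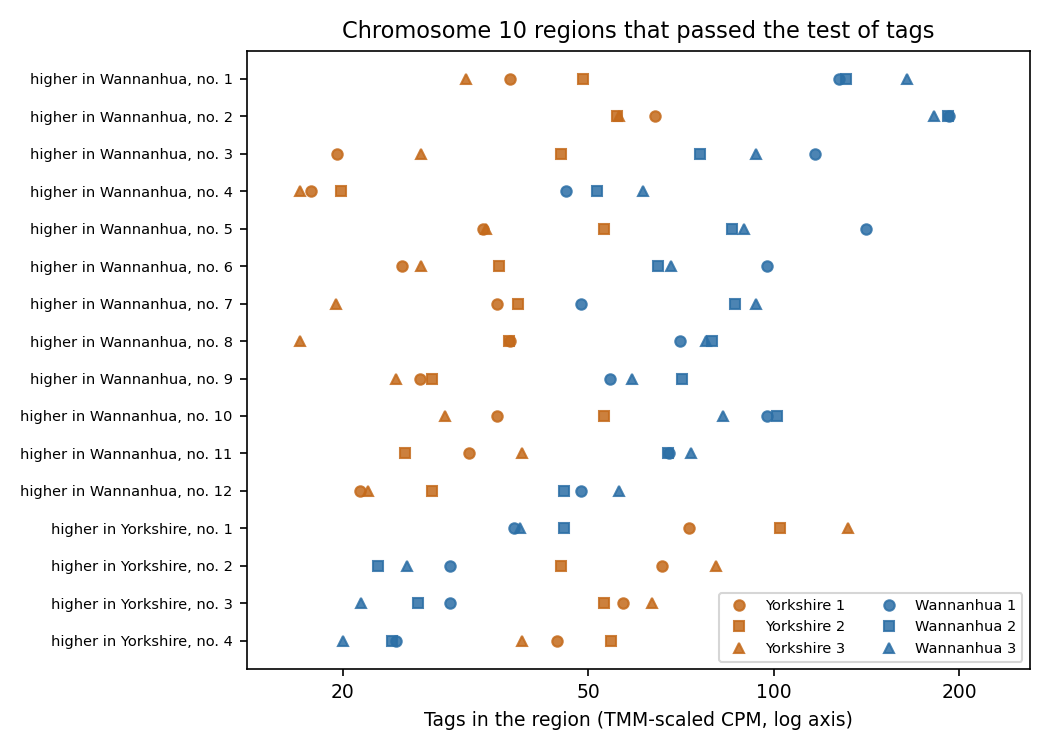
Tags in CPM on a log axis (x axis) for the 16 chromosome 10 regions that passed the test (y axis, ordered by log2 fold change within each direction), with 1 symbol per library. In every row the 3 Yorkshire and the 3 Wannanhua symbols are separate, from 31.7 to 49.1 CPM against 127 to 164 CPM in the top row. Rows were picked by a test of these same tags.

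Called length leaned towards Wannanhua in these regions, though not in each. The median region in all 6 libraries was called longer in Wannanhua by 0.36 on the log2 scale, and its tags per kb were 0.794 times the Yorkshire level. With called length as an offset none of the 16 regions passed (edgeR adjusted p from 0.207 to 0.953). That fit called 0 regions of chromosome 10 higher in Wannanhua and 3 others higher in Yorkshire, against 0.00522% and 0.047% over the 5 chromosomes. The number of calls also turned on single libraries. Without Yorkshire 1, 0 regions passed in either direction (0.0049% and 0% over the 5 chromosomes), although the log2 fold changes of the 16 stayed at 0.843 to 1.16 times their size. Without Yorkshire 2, 285 regions were higher in Wannanhua and 31 in Yorkshire, where over the 5 chromosomes 8.11% and 1.68% were called.

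Summed over 1 Mb windows, tags leaned towards Wannanhua under the TMM scaling, although no window passed the test. The edgeR fit called 0 of the 80 windows of chromosome 10 (0% of all 767 windows). At an unadjusted p under 0.05, 27 windows were higher in Wannanhua and 3 in Yorkshire, against 16.4% and 13.8% of all windows. DESeq2 called 24 higher in Wannanhua and 0 in Yorkshire, against 15.9% and 6.39%. With edgeR and scaling by library size alone the balance turned, to 8 higher in Wannanhua and 14 in Yorkshire, against 7.56% and 34% of all windows. The lowest edgeR adjusted p was 0.0753, in the window from 19000001 (log2 fold change 0.45, SE 0.12). A higher level in Wannanhua was seen in 61 of 80 windows, against 43.9% of windows over the 5 chromosomes. The median log2 fold change was 0.15 on chromosome 10 and −0.03 overall. Under that scaling by library size both medians moved down, to −0.06 and −0.25, so the sign on chromosome 10 flips, while its distance from the rest stays at 0.19. All 3 Wannanhua libraries lay above all 3 Yorkshire libraries in 25 windows (31.2%; 16.6% over the 5 chromosomes), and the opposite held in 3 (3.75%; 18.5%). Numbers of peaks per window did not follow: edgeR called 0 of 79 windows tested, 2 had an unadjusted p under 0.05, and DESeq2 called 0.

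The longest run of windows with all Wannanhua libraries above all Yorkshire libraries was the 8 Mb from 69000001 to 77000000. It was singled out after its values were seen and has no test of its own. It held 14.2%, 18.9% and 14.1% of the chromosome 10 tags in Yorkshire 1, 2 and 3 and 24.1%, 22.5% and 21.4% in Wannanhua 1, 2 and 3. Yorkshire 2 came nearest to the Wannanhua libraries. Its rate of redundant tags (0.39) was also nearer to theirs than those of Yorkshire 1 and 3 (0.58 and 0.69). The part of duplication in this was not tested. Log2 fold changes of the 8 windows in this stretch ran from 0.47 to 0.95, with edgeR adjusted p from 0.0831 to 0.147. In the window from 74000001 the levels were 2464, 4154 and 2620 CPM in Yorkshire and 6748, 5652 and 5209 CPM in Wannanhua (log2 fold change 0.93, SE 0.30, edgeR adjusted p = 0.0831). Without Yorkshire 2 all 8 windows passed, with log2 fold changes from 0.67 to 1.34, in a fit that called 23.5% of all 767 windows higher in Wannanhua and 11.6% in Yorkshire. Without any other single library 0 of the 8 passed, with log2 fold changes from 0.35 to 1.11 and edgeR adjusted p from 0.122 to 0.421. With no library left out, DESeq2 called all 8 windows (adjusted p from 0.0062 to 0.038). The count was 6 with library size scaling, 6 with equal numbers of top peaks and 1 with the stricter score. It was 0 with no filter and with the replicate block. Log2 fold changes were positive in each of these settings, from 0.26 to 1.45. Among them, shares of all windows called are given above for DESeq2 and library size scaling only.

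**Figure D5:**
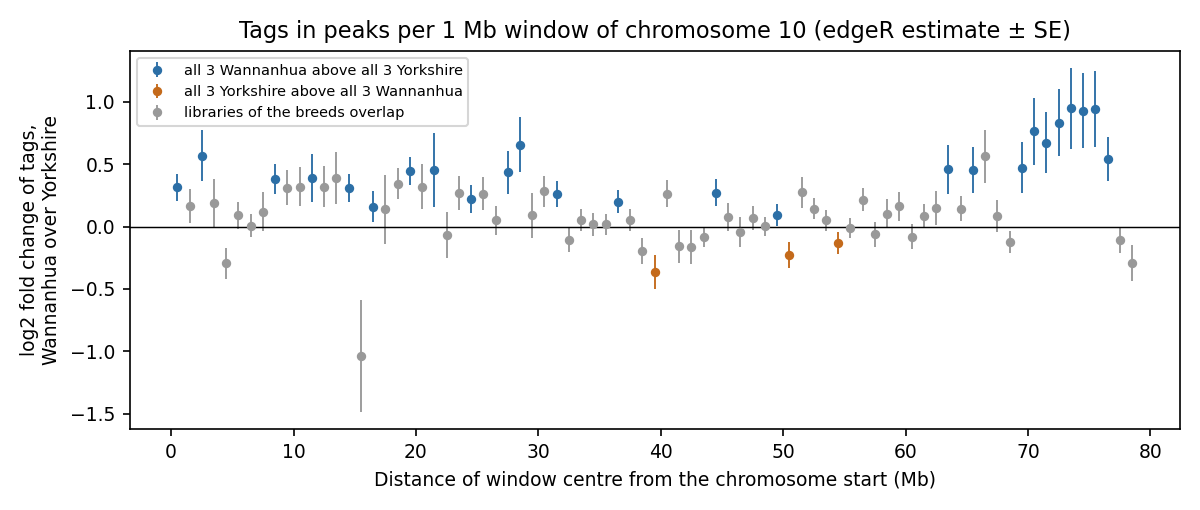
Log2 fold change of tags in peaks, Wannanhua over Yorkshire, with its SE (y axis), per 1 Mb window against distance from the start of chromosome 10 (x axis, Mb); blue and orange mark windows where the libraries of the breeds do not overlap. The blue run between 69 and 77 Mb lies at 0.47 to 0.95, and the low grey point near 15 Mb, at −1.03, is the window of the widest region.

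Over the distal 8 Mb, unscaled peak numbers showed no gap like that in tags, and unscaled called length overlapped between the breeds. Yorkshire had 108 ± 12.1 and Wannanhua 106 ± 17.5 peaks per Mb there (SD, n = 3 each). In the edgeR fit of peak numbers, log2 fold changes of these 8 windows ran from 0.07 to 0.33. The largest, in the windows from 72000001 and 74000001, had unadjusted p = 0.019 and 0.043 (edgeR, adjusted p = 0.993 for both). The called length was 75.4 ± 40.2 kb per Mb in Yorkshire and 115 ± 34.2 in Wannanhua, and libraries of the breeds overlapped. By library it was 68.3, 119 and 39.2 in Yorkshire and 76.1, 139 and 130 in Wannanhua. In the rest of chromosome 10 it was 46.1, 65.7 and 24.7 against 31.6, 67.5 and 66.0 kb per Mb. Relative to that rest, called length in the 8 Mb was higher in every Wannanhua library than in any Yorkshire one. The median peak spanned 587, 778 and 343 bp in the Yorkshire libraries, against 730, 952 and 958 bp in the Wannanhua ones. Tags in peaks, scaled to the filtered tags of a library (CPM) and divided by the kb called, were 4.11, 3.64 and 6.98 in Yorkshire and 5.44, 3.64 and 3.60 in Wannanhua, which overlap. Peaks in these 8 Mb were wider and less enriched than elsewhere on chromosome 10 in both breeds, with a median fold of 9.97 in Yorkshire and 8.07 in Wannanhua against 14.6 and 11.3. Of the 281 regions there called in all 6 libraries, 212 were higher in Wannanhua (median log2 fold change 0.43), against 1046 of 2041 in the rest of the chromosome (0.01). By 10 Mb segment that median lay between −0.056 and 0.13 over the first 7 segments and was 0.38 in the last. The 1536 regions of the 8 Mb included 31 Wannanhua-only (2.02%) and 21 Yorkshire-only ones (1.37%). The longer fragments of the Wannanhua libraries move with this result, and their part in it was not tested.

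The last 20 Mb, which contain the distal 8 Mb, held 27.0%, 31.9% and 26.1% of the chromosome 10 tags in Yorkshire 1, 2 and 3 and 35.5%, 34.9% and 34.2% in Wannanhua 1, 2 and 3. The means were 28.3% ± 3.14 and 34.9% ± 0.66 (exact permutation p = 0.1, the smallest possible, adjusted p = 0.26). The zone was compared after the windows had been seen. Outside the 8 Mb the zone held 12.6% ± 0.55 of the tags in Yorkshire and 12.2% ± 0.67 in Wannanhua, so its gap between breeds was that of the 8 Mb. The share of peaks in the last 20 Mb was 25.9% ± 0.78 and 26.9% ± 1.07 (exact permutation p = 0.3). The share of called length there was 29.1% ± 1.29 and 32.4% ± 1.28 (exact permutation p = 0.1, adjusted p = 0.26).

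The widest region of chromosome 10 was present in 2 Yorkshire libraries only. It spanned 12291 bp at 15773704 to 15785994 and was singled out after its values were seen. Yorkshire 1 had 5364 tags on 12238 bp of called peak and Yorkshire 3 had 6825 tags on 11958 bp, or 3.19% and 6.52% of all their chromosome 10 tags. Yorkshire 2 and the 3 Wannanhua libraries had no peak in it, and their nearest peaks were 11273 to 11319 bp away. Its fold enrichment was low, 3.49 in Yorkshire 1 and 3.98 in Yorkshire 3, where the lowest of any chromosome 10 peak was 3.46 and 3.65. Yorkshire 1 and 3 were also the libraries with the highest rates of redundant tags (0.58 and 0.69), and a link to the region was not tested. Whether the region lay just under the cutoff in the other libraries was not tested. The 1 Mb window that holds it had 6644, 2946 and 11830 CPM in Yorkshire and 4538, 3032 and 2888 CPM in Wannanhua (log2 fold change −1.03, SE 0.45, edgeR adjusted p = 0.147). Peak numbers in that window were 94, 116 and 96 in Yorkshire and 68, 102 and 93 in Wannanhua. Without the region Yorkshire's shares in the last 20 Mb were 27.9%, 31.9% and 27.9%, still below all Wannanhua libraries.

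Wide regions that only some libraries had were not confined to this one. The second widest, 7821 bp at 17590295 to 17598115, held 1043, 1475 and 528 tags in Yorkshire and 993 in Wannanhua 1, with no peak in Wannanhua 2 and 3. Another wide one, 6222 bp at 75093410 to 75099631, held 26, 263 and 24 tags in Yorkshire, none in a called peak of Wannanhua 1, and 168 and 396 in Wannanhua 2 and 3. A region of 5405 bp at 76087444 to 76092848 held more in Wannanhua, with 0, 37 and 10 tags in called peaks in Yorkshire and 121, 340 and 223 in Wannanhua. The last of the 6 regions over 5 kb, at 71320753 to 71325984, was called only in Yorkshire 2 (57 tags) and Wannanhua 2 (298 tags). These last 3 lie in the distal 8 Mb.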

How the data were processed

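MeDIP-seq peak lists of 6 pig muscle libraries, 3 Yorkshire and 3 Wannanhua, grouped by the breed label, were used as the authors deposited them. Per the file headers, peaks were called in each library separately with MACS without a control, with a p cutoff of 1e-05 and at most 1 tag per position, and 5 of 6 headers name version 1.4.2. The sources used here name no aligner or build. Per the file headers a peak has a count of tags (whole, not normalized), a fold enrichment, which is a ratio to local background, a score, which is the negative log10 of p times a constant, and a length. The authors' score and fold served to rank, filter or describe peaks. No control corrects for copy number or mappability. Each list stops at 65536 lines, and chromosomes 1, 10, 11, 12 and 13 are complete in all 6. The total of tags per library was 10455414 to 28580061, and the smallest peak had 7 to 13 tags, which limits precision for weak peaks.

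Peaks were merged at 1 bp overlap. The tags of regions called in all 6 libraries (19161), and the tags and peaks of 1 Mb windows, were tested over the 5 chromosomes with edgeR 4.0.16 (R 4.3.3; quasi-likelihood, robust, TMM, filterByExpr, Benjamini-Hochberg threshold 0.05). DESeq2 1.42.0 was an alternative. On simulated data the test of regions recovered 39.4% of changes of 1 and 98% of changes of 2 on the log2 scale. Library values were compared by exact permutation tests (Python 3.11.15, numpy 2.4.6, scipy 1.17.1, pandas 2.3.3; plots with matplotlib 3.10.9). Named regions were the 8 breed-only regions per breed with the highest mean score, up to 10 per direction with the largest fold change among those past the threshold, the 8 with the best mean rank of fold and of tags and the 5 widest of those called in all 6, and the 5 densest and 5 sparsest windows. Regions, lists and tests were chosen with earlier results of these data known. Comparisons of width, fold and end ratio between chromosomes, of zones and of the distal 8 Mb were added later. Alternatives were a stricter score (100), 33496 top peaks per library, reciprocal overlap of 50%, other scalings, no filter, a called-length offset, fragment length as covariate, end zones of 10 Mb, peak summits with 250 bp on each side, a replicate block, each library left out, and, added after seeing the data, leaving out the widest region.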

Additional observations from a re-analysis of the deposited data

How the results depend on the processing

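Denser peaks on chromosome 10 than on chromosomes 1, 11 and 13, and sparser than on 12, kept their direction under every alternative tried. Leaving out 1 library gave log2 ratios of 0.53 to 0.56, 0.23 to 0.24, 0.60 to 0.63 and −0.22 to −0.19, each with an exact p of 0.0625, the smallest 5 libraries allow; with the stricter score the ratio to chromosome 12 was −0.10 (adjusted p = 0.0625). The breed difference in peaks per Mb was −16.6 to 2.30 with 1 library left out. Yorkshire-only and Wannanhua-only regions numbered 117 and 81 with the stricter score, 119 and 226 with equal numbers of top peaks, and 242 to 497 and 183 to 390 with 1 library left out. In those last counts a peak in the library left out was neither required nor excluded, so the criterion was looser. Shares over the 5 chromosomes are not given for these settings.

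Counts of regions with more tags in Wannanhua and in Yorkshire (12 and 4) became 12 and 8 with library size scaling (60.0% against 75.0% towards Wannanhua), 81 and 2 with DESeq2 (97.6%), 0 and 3 with called length as offset, 0 and 1 with fragment length as covariate, 13 and 0 with the stricter score, 16 and 2 with equal numbers of top peaks, and 32 and 4 with reciprocal overlap. Leaving out 1 library gave 0 to 285 and 0 to 31. DESeq2 gave no adjusted p to 15231 of the 19161 regions over the 5 chromosomes, so its counts and their balance rest on the others. Of the 16 named regions, 6 passed with DESeq2, and the other 10 were among those without an adjusted p. None passed with called length as offset or fragment length as covariate; with the covariate their log2 fold changes were 0.369 to 1.28 times their size. Without Yorkshire 1, 0 passed, with 15 without Yorkshire 2, 7 without Yorkshire 3, and 3, 1 and 5 without Wannanhua 1, 2 and 3. With called length as offset the log2 fold change turned to −0.25 at 45843522, −0.053 at 29143923 and −0.21 at 63022897. Windows with more tags numbered 8 and 14 with library size scaling, 24 and 0 with DESeq2, 6 and 1 with the stricter score, 16 and 3 with equal numbers of top peaks, and 0 to 39 and 0 to 4 with 1 library left out; windows with more peaks in Wannanhua numbered 6 with the stricter score. Shares over the 5 chromosomes are given above for some of these settings only. The other counts therefore cannot be read as particular to chromosome 10. The cause of the changes between settings was not tested.

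Labels number the samples 1 to 3 in both breeds. Same-numbered libraries did not deviate together more than others (correlations −0.009, 0.032 and −0.050, against −0.079 to 0.083 for different numbers). No pairing was seen, but 3 libraries per breed cannot exclude one. With the replicate block 26 regions were higher in Wannanhua and 5 in Yorkshire, and 5 windows were higher in Wannanhua. Shares over the 5 chromosomes are not given for this fit. Depth limits weak peaks most, since a missing peak may be one just under the cutoff.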
